A study of Bos taurus with 28 samples.

Results

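The genes described here are the receptors, messengers and binding proteins through which prolactin, growth hormone and insulin-like growth factor 1 (IGF1) reach the mammary gland. The list held 10 genes, and every probe set was taken whose platform annotation gave exactly 1 gene symbol from that list. This gave 23 of the 24016 probe sets tested, for 8 of the 10 genes and of the 9155 genes that a probe set named. GHR had 11 probe sets, IGF1 had 4, IGF1R and IGFBP3 had 2 each, and PRLR, STAT5B, ELF5 and IGFBP5 had 1 each. STAT5A and JAK2 were not analysed here. The tissue was mammary gland, taken by surgical biopsy in mid-lactation from 28 cows of the Holstein-Friesian dairy breed, all fed 1 control ration of corn silage, grass silage and concentrates. The cows differed in the genotype at DGAT1, the gene of an enzyme of milk fat synthesis: 4 cows were KK (lysine on both alleles), 13 were KA (1 lysine and 1 alanine allele) and 11 were AA (alanine on both alleles). Affymetrix Bovine Genome Arrays were used, with 1 array per animal, and the small number of KK cows limits what can be said of that genotype. Cows are named by genotype and number, such as KA 2. The numbers follow the order of deposit within each genotype and carry no pairing.

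Prolactin and growth hormone bind related single-pass receptors, PRLR and GHR, which hold the kinase JAK2. The activated kinase phosphorylates STAT5A and STAT5B, which enter the nucleus and switch on genes such as those of the caseins. ELF5 is an epithelial transcription factor that works beside STAT5 in the making of milk secreting alveoli. Growth hormone acts largely through IGF1, made in liver and locally in the stroma of the gland, and IGF1 acts through its receptor kinase IGF1R. Binding proteins hold most IGF1: IGFBP3 is the main carrier in blood, and IGFBP5 is known in the rodent gland for its rise when milking stops and the gland involutes. In cows, growth hormone is known to sustain milk yield, while prolactin is needed above all for the start of lactation.

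The deposited values were log2 differences from a baseline that is fixed for each probe set, so differences between cows can be read and levels of different genes cannot be compared. A coarse class of signal was read from the rounding of the values: 6 member probe sets were bright, 6 intermediate and 11 dim, against 3443, 13954 and 6619 of all probe sets. The class is an estimate, and 8 of the 11 GHR probe sets were dim and none bright. For each gene with several probe sets, 1 stood for the gene: the brightest class first, then the plainest probe set type, then the identifier. The arrays of AA 2 and AA 9 differed most from the rest, with an SD over probe sets of 0.86 and 0.78 against 0.21 to 0.35 in the 26 remaining arrays. The fibroblast and matrix marker mean reached 0.98 and 1.46 there, where the 26 lay between −0.48 and 0.37. The mean of the 6 main milk protein genes (CSN1S1, CSN1S2, CSN2, CSN3, LALBA and PAEP) was −0.53 and −1.36 in these arrays, against −0.30 to 0.11. The milk protein genes, which define the tissue, were all bright. The genotype differences of the genes are given with and without these arrays, and relations across cows are given over the other 26. In a biopsy, fewer cells of a type and less RNA per cell cannot be told apart.

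**Figure D1:**
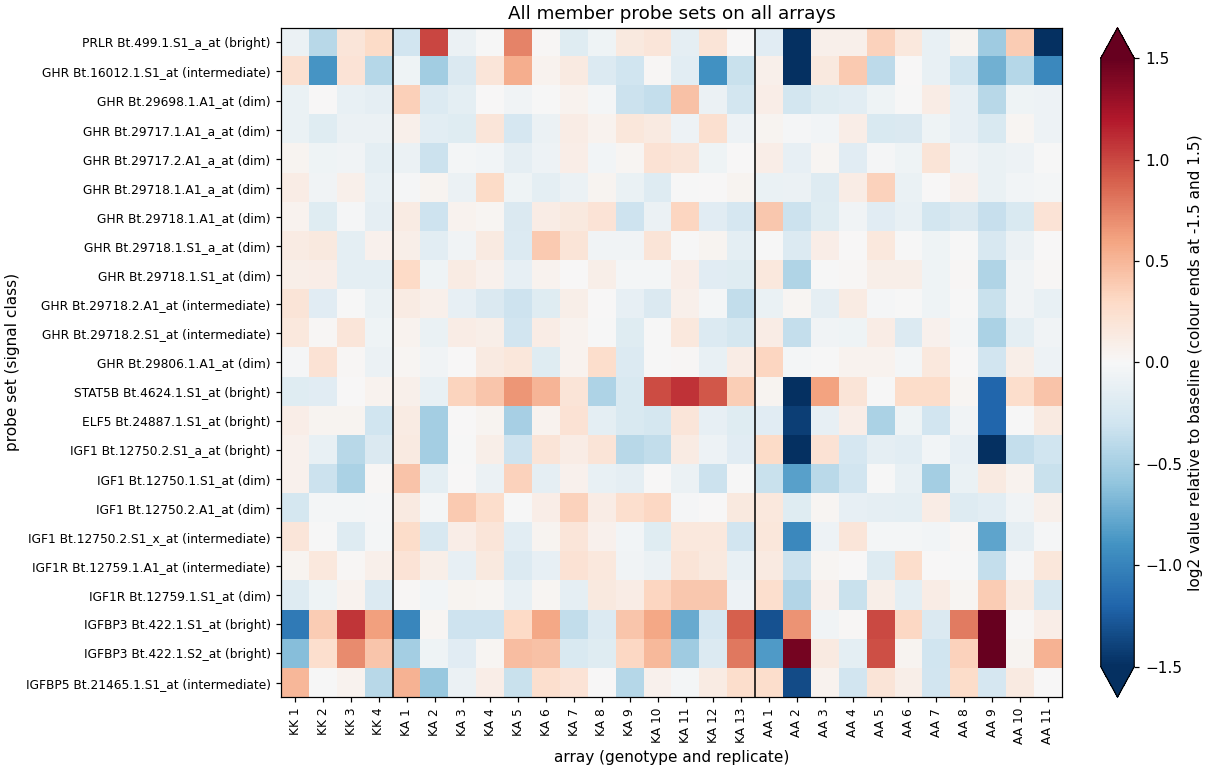
Log2 value of each of the 23 member probe sets (rows, with signal class) in each of the 28 arrays (columns, KK then KA then AA), relative to the baseline of that probe set. Blue is lower and red is higher, and the colour ends at −1.5 and 1.5. STAT5B, ELF5 and the bright IGF1 probe set are deep blue in AA 2 and AA 9. PRLR is deep blue in AA 2 and AA 11, and the dim GHR probe sets stay pale throughout.

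No member gene differed between the DGAT1 genotypes past the threshold. With limma and Benjamini-Hochberg adjustment over all 24016 probe sets, 0 of 23 member probe sets had an adjusted p under 0.05 in KK against AA, KA against AA, KK against KA, the slope per K allele or the distance of KA from the KK and AA midpoint. Of all probe sets, 0% passed in the first 4 of these comparisons and 0.00416% in the last. At an unadjusted p under 0.05 the member counts were 0 for KK against AA (3.51% of all probe sets), 2 for KA against AA (21.8% of all), 1 for KK against KA (2.84% of all), 0 for the slope per K allele (9.16% of all) and 1 for the distance from the midpoint (9.81% of all). The median member difference was 0.04 for KK minus AA and 0.09 for KA minus AA, against 0.01 and 0.02 over all probe sets. Without AA 2 and AA 9 both member medians lay near 0, at −0.01 and 0.00, and again 0 members passed, against 0% of all probe sets in 4 of the comparisons and 0.025% for the distance from the midpoint. On simulated arrays, changes of 1 log2 were recovered for 95.5% of probe sets in KK against AA and 98.0% in KA against AA. For changes of 0.5 log2 the shares were 55.5% and 80.5%. The simulated arrays had this design, with the spread over the 26 arrays without AA 2 and AA 9. These shares can thus be too high for probe sets that AA 2 and AA 9 spread further. The SD of the bright IGF1 probe set was 0.23 over 26 arrays and 0.51 over 28.

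The prolactin receptor varied widely within each genotype. PRLR read −0.08, −0.42, 0.18 and 0.29 in the 4 KK cows. The KA cows ran from −0.29 over a median of 0.01 to 1.00, and the AA cows from −2.31 over a median of 0.04 to 0.38. The groups overlapped, KA 2 and KA 5 were high at 1.00 and 0.75, and AA 11 and AA 2 were low at −2.31 and −2.0. KA minus AA was 0.49 (SE 0.25) with an adjusted p of 0.245 by limma, and KK minus AA was 0.36 (SE 0.36) with an adjusted p of 0.909. Without AA 2 and AA 9 these differences were 0.29 (SE 0.23) and 0.16 (SE 0.31). The 9 AA cows left, with AA 11 among them, had a mean of −0.17 but a median of 0.07. The KA cows had a mean of 0.12 and a median of 0.01. In AA 11 the 3′ minus 5′ difference of the GAPDH control probe sets, a measure of RNA quality, was 0.97, and in AA 2 it was 1.33, against −0.59 to 0.25 in the 25 arrays other than these and AA 9. For actin the same measure was −0.28 for AA 11, below the range of −0.20 to 0.46 of those 25 arrays. AA 2 lay within that range, at −0.14. AA 9 lay below both ranges, at −0.66 for GAPDH and −0.21 for actin. The part of RNA quality in the low PRLR values was not tested.

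The growth hormone receptor showed no pattern by genotype. The probe set that stands for GHR read 0.24, −0.89, 0.21 and −0.43 in the KK cows. It ran from −0.91 over −0.16 to 0.54 in KA cows and from −1.84 over −0.30 to 0.39 in AA cows. The 3 ranges overlapped almost wholly. KK minus AA was 0.16 (SE 0.28) and KA minus AA was 0.24 (SE 0.19), with adjusted p of 0.926 and 0.440 by limma. Without AA 2 and AA 9, KK minus AA turned to −0.04 (SE 0.22) and KA minus AA was 0.04 (SE 0.16). None of the other 10 GHR probe sets had an unadjusted p under 0.05 in any of the 5 comparisons.

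STAT5B, the carrier of the prolactin and growth hormone signal that could be read here, ranged more widely in KA cows than ELF5. It read −0.19, −0.17, 0.00 and 0.05 in the KK cows. KA cows ran from −0.47 over 0.36 to 1.08, and AA cows from −1.79 over 0.19 to 0.61. KA 10, KA 11 and KA 12 were the highest arrays, at 0.98, 1.08 and 0.93. The KK cows lay close together, within the range of the KA cows and of all AA cows. Without AA 2 and AA 9 the AA cows ran from −0.003 to 0.61, and KK 1 and KK 2 lay below them. KA minus AA was 0.44 (SE 0.22, adjusted p = 0.237 by limma) and KK minus KA was −0.44 (SE 0.31, adjusted p = 1.00). Without AA 2 and AA 9, KA minus AA was 0.13 (SE 0.15, adjusted p = 0.825), and with the array number range added as a block as well it was −0.06 (SE 0.18, adjusted p = 0.968). KK minus AA was 0.00 (SE 0.32) with these 2 arrays and −0.31 (SE 0.21) without them. The array number comes from the sample titles. KK cows lay only in numbers 29 to 42 and 11 of the 13 KA cows in numbers 43 to 56, so range and genotype overlap in large part.

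ELF5 lay close to its baseline in most cows. It read 0.10, 0.04, 0.04 and −0.30 in the KK cows, with KK 4 apart from the others. The KA cows ran from −0.51 over −0.12 to 0.21, and the AA cows from −1.42 over −0.12 to 0.14. The lowest KA values were those of KA 2 and KA 5, the cows with the highest PRLR. KK minus AA was 0.29 (SE 0.21) and KA minus AA was 0.22 (SE 0.15), with adjusted p of 0.909 and 0.352 by limma. Both rested on AA 2 and AA 9, without which they were 0.07 (SE 0.13) and 0.00 (SE 0.09).

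The bright IGF1 probe set read 0.06, −0.11, −0.41 and −0.22 in the KK cows. It ran from −0.51 over 0.00 to 0.19 in KA cows and from −1.90 over −0.16 to 0.28 in AA cows. The groups overlapped, and the AA minimum was set by AA 9 and AA 2. KK minus AA was 0.25 (SE 0.28) and KA minus AA was 0.34 (SE 0.20), with adjusted p of 0.910 and 0.291 by limma. In the 26 cows other than AA 2 and AA 9, KK minus AA turned to −0.07 (SE 0.14) and KA minus AA was 0.02 (SE 0.10). A dim IGF1 probe set had the smallest genotype p of all members. It averaged −0.09 ± 0.12 in KK cows (SD, n = 4), 0.15 ± 0.15 in KA cows (SD, n = 13) and −0.05 ± 0.13 in AA cows (SD, n = 11). KA minus AA was 0.21 (SE 0.06, adjusted p = 0.137 by limma), KK minus KA was −0.24 (SE 0.09, adjusted p = 1.00) and the distance of KA from the midpoint was 0.23 (SE 0.06, adjusted p = 0.318). For the bright IGF1 probe set this distance was 0.22 (SE 0.19, adjusted p = 0.675), and the correlation between these probe sets over 26 arrays was weak, as described further on.

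The IGF1R probe set that stands for the gene varied little and the binding proteins varied more. IGF1R read 0.04, 0.15, 0.02 and 0.08 in KK cows, ran from −0.21 over 0.09 to 0.21 in KA cows and from −0.36 over 0.00 to 0.27 in AA cows. IGFBP3 read −1.06, 0.38, 1.08 and 0.62 in KK cows, ran from −0.97 over −0.20 to 0.90 in KA cows and from −1.31 over 0.10 to 2.73 in AA cows. IGFBP5 read 0.50, −0.01, 0.05 and −0.41 in KK cows, ran from −0.56 over 0.07 to 0.53 in KA cows and from −1.34 over 0.06 to 0.28 in AA cows. In all of these the genotypes overlapped, and the 4 KK cows alone spanned over 2 log2 units of IGFBP3. KK minus AA was 0.10 (SE 0.10) for IGF1R, −0.12 (SE 0.44) for IGFBP3 and 0.14 (SE 0.21) for IGFBP5, with adjusted p of 0.909, 0.967 and 0.921 by limma. Without AA 2 and AA 9 these were 0.03 (SE 0.09), 0.18 (SE 0.36) and −0.02 (SE 0.16), so the signs of IGFBP3 and IGFBP5 turned. KA minus AA was 0.06 (SE 0.07) for IGF1R, −0.40 (SE 0.31) for IGFBP3 and 0.11 (SE 0.15) for IGFBP5, and without these arrays −0.01 (SE 0.06), −0.10 (SE 0.26) and −0.04 (SE 0.12). Over all 23 member probe sets, 11 changed the sign of KK minus AA and 5 that of KA minus AA when AA 2 and AA 9 were left out. The 95% interval of the IGFBP3 difference between KK and AA over all 28 arrays, from −1.02 to 0.79, leaves room for a change of up to about 2-fold either way.

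**Figure D2:**
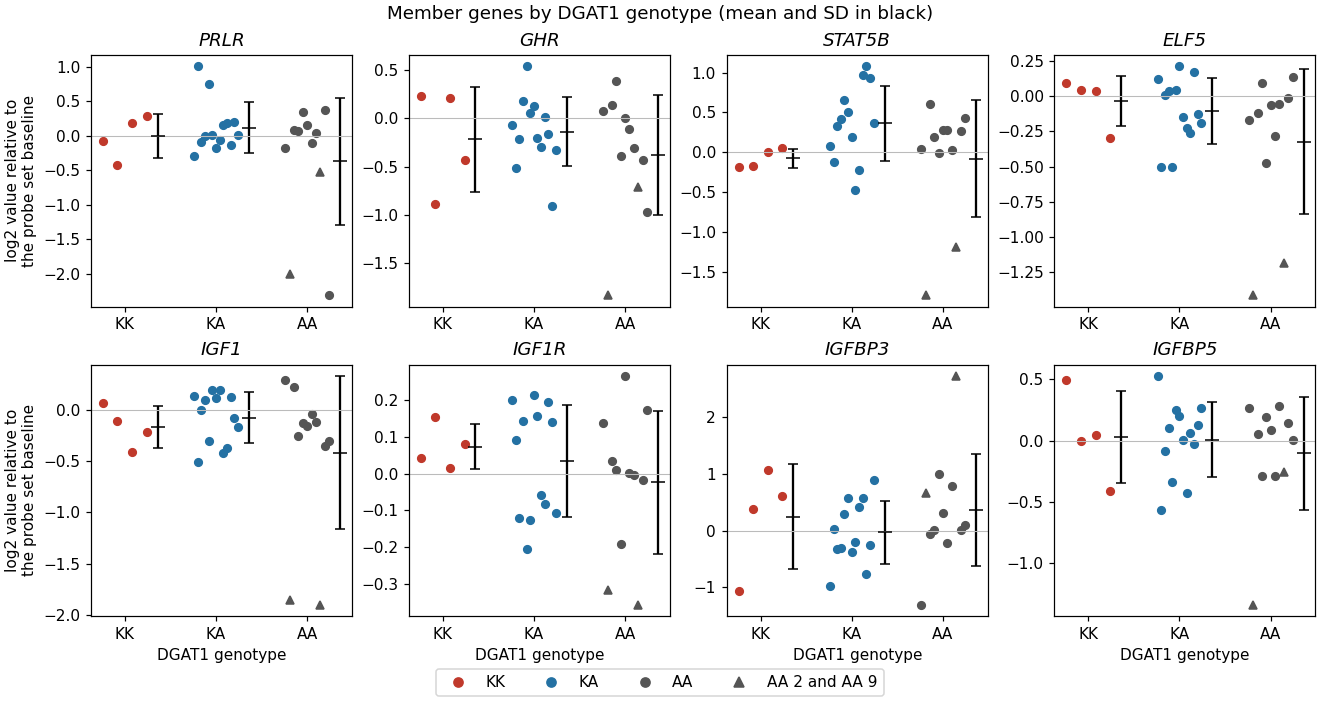
Log2 value relative to the probe set baseline (vertical axes, each panel with its own scale) of the 8 measured member genes in KK (n = 4), KA (n = 13) and AA (n = 11) cows, left to right, 1 point per cow. Black bars are the mean and SD, and triangles mark AA 2 and AA 9, which pull the AA mean down for STAT5B, ELF5 and IGF1; the groups overlap in every panel.

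The rest of the pathway gave the same count. Lists were set for hormones and growth factors, receptors and carriers, other IGF binding proteins and their proteases, other kinases and STATs, feedback inhibitors, signalling below the IGF1 receptor, and factors of alveolar differentiation. None of their 6, 9, 10, 5, 12, 16 and 11 measured genes passed the adjusted threshold in KK against AA or KA against AA. The smallest p in KK against AA among the genes below the receptor was that of GSK3B, a kinase that insulin signals switch off, at 0.35 (SE 0.14, adjusted p = 0.909 by limma). In KA against AA it was that of RPS6KB1, the kinase that drives ribosomal protein S6, at 0.37 (SE 0.11, adjusted p = 0.134 by limma). NFIC, a factor that binds milk gene promoters, gave 0.45 (SE 0.13, adjusted p = 0.137), and PTPN2, a phosphatase that dephosphorylates JAK and STAT proteins, gave −0.38 (SE 0.13, adjusted p = 0.152), both for KA minus AA.

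Over the 26 cows, no member probe set passed the threshold against the level of milk protein messenger RNA. The milk protein level was the mean of the 6 genes in each array, and it varied little over the 26 arrays, with an SD of 0.08 and AA 6 lowest at −0.30. In a limma model with this level as the predictor, 0 of 23 member probe sets had an adjusted p under 0.05, as did 0% of all probe sets. At an unadjusted p under 0.05 there was 1 member, a GHR probe set of intermediate signal, against 4.86% of all probe sets. Its slope was 0.77 log2 per log2 of milk protein level, with an adjusted p of 0.950. Slopes of 1, 2 and 4 were recovered for 0%, 29.5% and 90.5% of simulated probe sets, so a slope of 1 was not detectable over so narrow a range.

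The correlations with milk protein level lay between −0.268 and 0.426 over the 23 relations computed. For IGF1, r was 0.203 and rho 0.326 (permutation p = 0.346 and 0.104, two-sided, n = 26), with r = 0.172 within array numbers 29 to 42 and 0.348 within 43 to 56. For ELF5, r was 0.077 and rho 0.182 (permutation p = 0.715 and 0.372), and for STAT5B, r was 0.045 and rho 0.043 (permutation p = 0.822 and 0.835). PRLR gave r = −0.103 and rho = −0.065 (permutation p = 0.464 and 0.749). In 2 of the 23 relations the permutation p of r was under 0.05, both in GHR probe sets, and in 4 that of rho was. Those 4 were 2 dim GHR probe sets, the intermediate IGF1 probe set (rho = 0.411, permutation p = 0.038) and the dim IGF1R probe set (rho = 0.390, permutation p = 0.050). The one of intermediate signal named above gave r = 0.426 and rho = 0.331 (permutation p = 0.022 and 0.100), and without AA 6 and KA 13, the arrays farthest from the median level, r was 0.191. The other, a dim one, gave r = 0.382 and rho = 0.461 (permutation p = 0.046 and 0.019), and 0.302 without those arrays. The IGF1R probe set that stands for the gene went opposite ways in the array number ranges, with r = −0.686 in 29 to 42 and 0.440 in 43 to 56. Its r over all 26 cows, −0.268, rested on AA 6, lowest in milk protein level and highest in IGF1R, and was 0.035 without it.

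**Figure D3:**
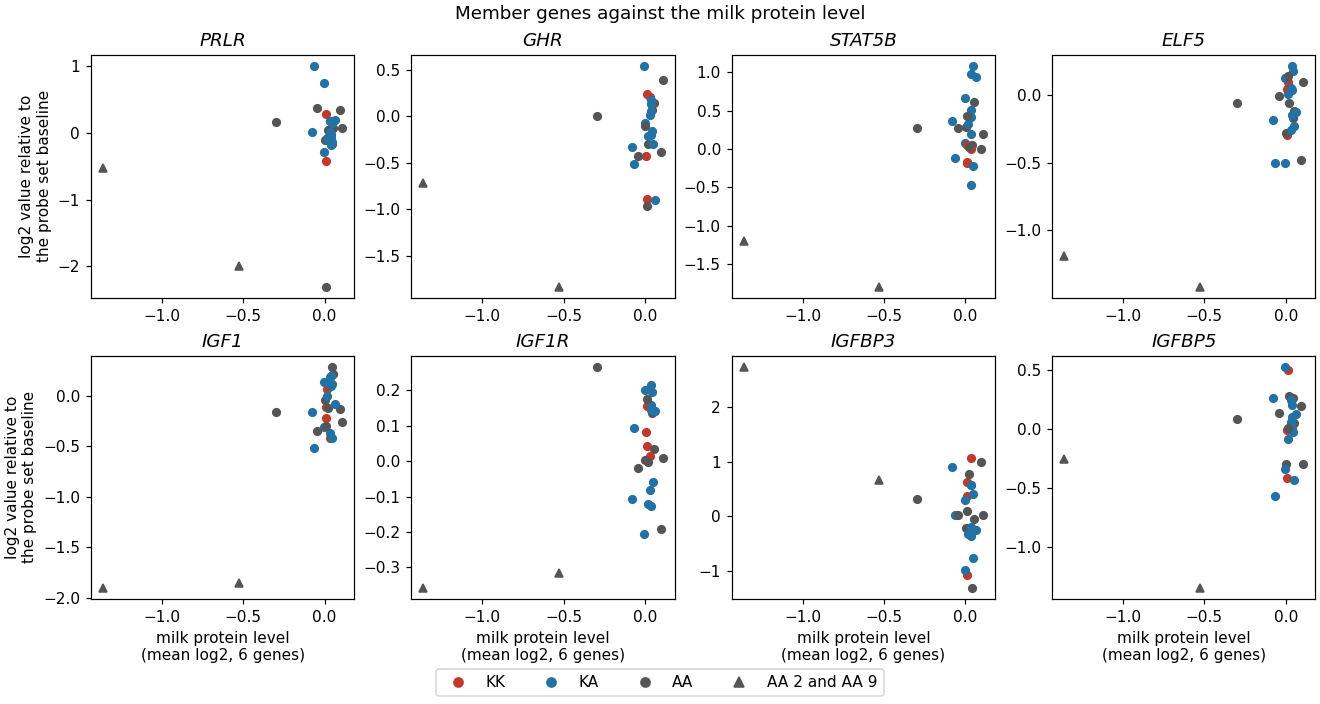
Log2 value of each member gene (vertical axes, relative to the probe set baseline) against the milk protein level (horizontal axes, mean log2 of 6 milk protein genes), 1 point per cow in KK, KA and AA colours. The 26 round points lie in a narrow band between −0.30 and 0.11 on the horizontal axis, and the triangles, AA 2 and AA 9, lie alone to the left at −0.53 and −1.36.

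AA 2 and AA 9 combined low milk protein messenger with low STAT5B and ELF5, and with low values of the probe sets standing for IGF1 and IGF1R. STAT5B read −1.79 in the gland of AA 2 and −1.19 in that of AA 9, below the range of −0.47 to 1.08 of the other 26 cows. ELF5 read −1.42 and −1.19, against −0.51 to 0.21 in the others. The bright IGF1 probe set read −1.85 and −1.90, against −0.51 to 0.28. In each of these 3 probe sets both glands thus lay below every other cow. IGFBP3 went the other way in its second probe set, at 1.44 and 2.78 against −0.84 to 0.97, while the first read 0.67 and 2.73 against −1.31 to 1.08. Over all members, 9 of 23 probe sets (39.1%) had both arrays below all other cows, against 17.7% of all probe sets. For 1 of 23 (4.35%) both lay above, against 18.4%. GHR and IGF1 gave several of the 9. With 1 probe set per gene, 4 of 8 member genes had both arrays below, against 16.2% of all genes. For 0 member genes both lay above, against 22.5%. The probe set that stands for IGF1R read −0.32 and −0.36, against −0.21 to 0.27. The dim IGF1R probe set read −0.44 in AA 2 and 0.38 in AA 9, against −0.33 to 0.41. Both dim IGF1 probe sets lay within the other cows in AA 9, at 0.13 and −0.15. PRLR at −0.53, the probe set that stands for GHR at −0.72 and IGFBP5 at −0.26 lay within the other cows in AA 9. Other genes of the IGF system were mixed. IGFBP7 and MMP2 lay above all other cows in both glands, and IGF2 (2.57), IGFBP4 (2.28) and IGFBP6 (1.91) did so in AA 9 only. IGFBP1, IGFBP2, IGFBP6, STC1, ADAM12 and CTSD fell below every other cow in the gland of AA 2. Of the 10 measured genes for other IGF binding proteins and their proteases, 2 were thus above in both glands. The share of all genes was 22.5%, so this count shows no excess. The mean of this list spanned −0.23 to 0.39 among the other 26 cows. AA 2 fell inside that span (−0.03) and AA 9 above it (0.87). With all 28 arrays in the milk protein model, 11 of 23 member probe sets passed (51.9% of all probe sets did). These arrays also carried high matrix genes such as the collagens, while the fibroblast receptors PDGFRA and PDGFRB lay below all other cows in both. The epithelial markers split: the milk fat globule genes MUC1 (−3.92 and −5.02), BTN1A1 (−3.59 and −5.02) and XDH (−1.83 and −2.37) lay far below the others, and EPCAM, CDH1, KRT18 and CLDN4 above them. T cell markers stood at 0.96 and 1.26 against −0.49 to 0.70. The parts of tissue makeup and of RNA quality in these values were not tested.

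Where the members did differ between cows was along a set of genes known from involution and the acute phase of inflammation. The mean of the 15 measured genes of that list, among them the milk defence proteins LTF and SAA3 and the secreted proteins CHI3L1 and CLU, ran from −0.76 in AA 1 to 1.01 in KA 2. It read −0.37, −0.20, 0.52 and 0.68 in the KK cows, ran from −0.63 over 0.04 to 1.01 in KA cows and from −0.76 over 0.25 to 0.46 in the 9 AA cows. The lowest cows were AA and KA and the highest KA and KK, and the 3 genotypes overlapped. In a limma model with this mean as the predictor, 11 of 23 member probe sets had an adjusted p under 0.05, 9 of them falling with it and 2 rising. This was a broad pattern, since 30.2% of all probe sets passed. Direction went with signal class. Of all bright probe sets 24.4% rose and 10.3% fell, of intermediate ones 16.8% rose and 14.6% fell. Among dim ones 3.02% rose and 22.4% fell, and 11 of the 23 members were dim. The members called were 2 bright rising, and 2 bright, 3 intermediate and 4 dim falling. The median member slope was −0.11, against −0.03 over all probe sets, medians not matched for class. This model was added after the milk protein and genotype results were seen. CHI3L1, SAA3 and CLU weigh most in the mean, with slopes of 3.54, 3.16 and 2.15.

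IGF1 followed this level most closely of the member genes. The bright probe set fell by 0.38 log2 per log2 of the involution and acute phase level (SE 0.05, adjusted p = 1.48e-05 by limma). Over the 26 cows r was −0.844 and rho −0.818, with a permutation p of 2e-05 for each. The relation was as strong within array numbers 29 to 42 (r = −0.844) and 43 to 56 (r = −0.851), and r was −0.793 without AA 1 and KA 2, the cows farthest from the median. The 5 cows with the lowest level of the list (AA 1, KA 4, KA 7, KA 8 and KA 1) read 0.28, 0.09, 0.12, 0.19 and 0.14 for IGF1, and the 5 with the highest (KA 2, KA 5, KK 4, KA 9 and KA 13) read −0.51, −0.31, −0.22, −0.42 and −0.17. The intermediate IGF1 probe set fell by 0.24 per log2 (SE 0.04, adjusted p = 0.000344), whereas the 2 dim ones had slopes of 0.01 and −0.08 with adjusted p of 0.940 and 0.387.

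The binding proteins went opposite ways. IGFBP3 rose by 0.80 log2 per log2 of the level (SE 0.18, adjusted p = 0.0018 by limma), with r = 0.641 and rho = 0.664 (permutation p = 0.00042 and 0.00026). Its second probe set rose by 0.52 (SE 0.14, adjusted p = 0.0072). IGFBP5 fell by 0.33 (SE 0.09, adjusted p = 0.0050), with r = −0.609 and rho = −0.479 (permutation p = 0.00098 and 0.015). IGFBP3 was thus higher, and IGFBP5 lower, in the glands with more acute phase messenger. With the fibroblast and matrix mean as a covariate, the IGFBP3 slopes were 0.60 (SE 0.21) and 0.38 (SE 0.17), with adjusted p of 0.072 and 0.147.

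The transcription factors and receptors split. ELF5 fell by 0.26 per log2 of the level (SE 0.06, adjusted p = 0.0036 by limma), with r = −0.643 and rho = −0.640 (permutation p = 0.00041 and 0.00063). STAT5B had a slope of −0.01 (SE 0.14, adjusted p = 0.949) and r = −0.019. IGF1R had a slope of −0.12 (SE 0.05, adjusted p = 0.069) with r = −0.472. For GHR, 5 of 11 probe sets passed, all negative, of which 4 were dim: among dim probe sets, 22.4% of all passed with a negative slope and 3.02% with a positive one. The largest slope, of a dim probe set, was −0.30 (SE 0.05, adjusted p = 0.000236), while the probe set that stands for GHR had −0.13 (SE 0.14, adjusted p = 0.494).

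For PRLR the call depended on 1 cow. Over 26 arrays its slope on the involution and acute phase level was 0.40 (SE 0.19, adjusted p = 0.117 by limma), with r = 0.361 and rho = 0.670 (permutation p = 0.059 and 0.00023). Without AA 11 the slope was 0.44 (SE 0.08, adjusted p = 0.000249) and r was 0.748, and 30.8% of all probe sets then passed. KA 2 and KA 5, highest in PRLR at 1.00 and 0.75, were also highest in the list mean at 1.01 and 0.94. The relation was uneven between array number ranges, with r = 0.769 in 29 to 42 and 0.179 in 43 to 56, the range that holds AA 11.

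**Figure D4:**
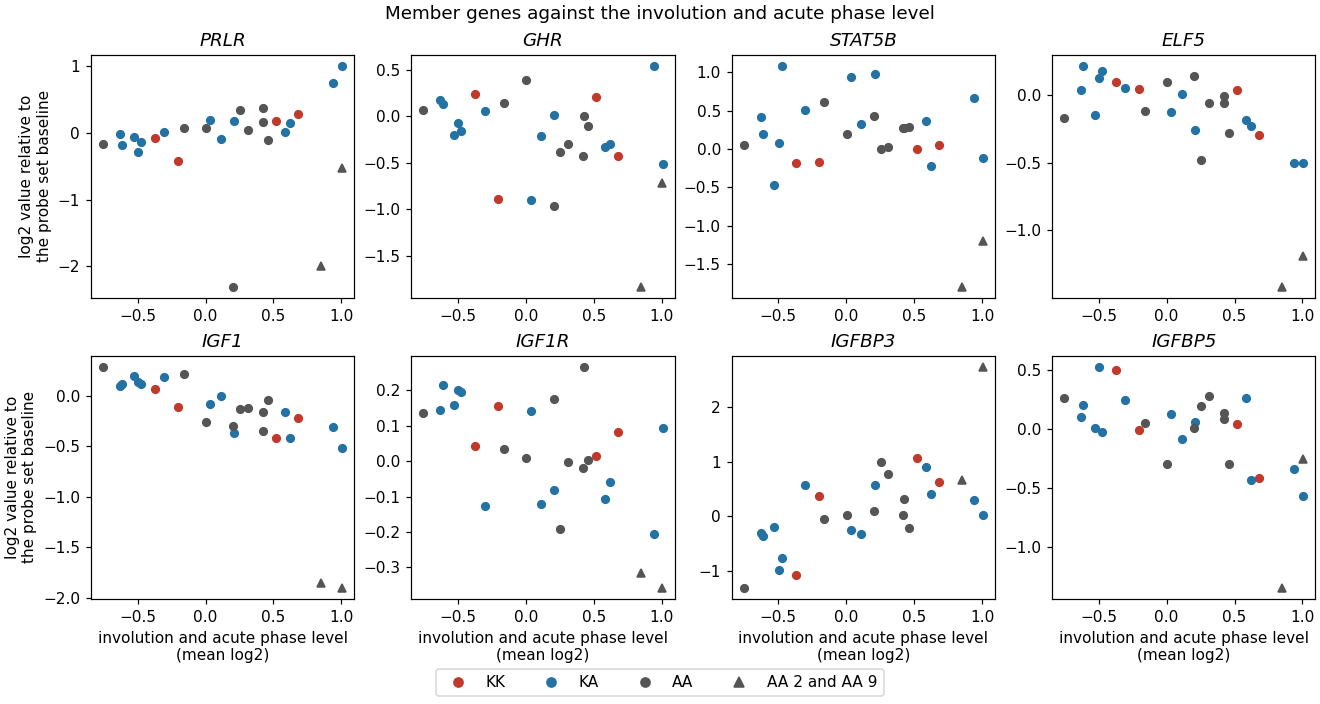
Log2 value of each member gene (vertical axes, relative to the probe set baseline) against the mean log2 of the involution and acute phase genes (horizontal axes), 1 point per cow. IGF1, ELF5 and IGFBP5 slope down and IGFBP3 slopes up over the 26 round points, PRLR slopes up apart from AA 11 at −2.31, and STAT5B has no slope; triangles are AA 2 and AA 9.

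Other genes of the pathway were set against the same level, for which 30.2% of all probe sets passed. Of the other IGF binding proteins and their proteases, 4 of 10 rose and 1 fell, led by IGFBP4, an inhibitor of IGF action, at 1.01 (SE 0.17, adjusted p = 8.24e-05 by limma), then IGFBP7 at 0.33 (SE 0.10) and the matrix protease MMP2 at 0.42 (SE 0.12). Of the other kinases and STATs, 2 of 5 rose: STAT3, the STAT of the acute phase and of involution, which is itself in the list mean, and STAT6, with 0.39 (SE 0.10, adjusted p = 0.0060). Of the feedback inhibitors, 3 of 12 rose and 0 fell, among them the phosphatases PTPN2, at 0.40 (SE 0.07), and PTPN6, at 0.20 (SE 0.06). Of the receptors and carriers, 0 of 9 rose and 2 fell, those for progesterone (PGR, −0.22, SE 0.06) and oestrogen (ESR1, −0.20, SE 0.07). Both were dim, a class in which 22.4% of all probe sets fell and 3.02% rose. Of the hormones and growth factors, PRL and IGF2 rose, at 0.32 (SE 0.07) and 0.52 (SE 0.18), and 4 of 6 did not pass. Of the genes below the IGF1 receptor, 3 of 16 rose and 0 fell, led by PIK3R1, a regulatory subunit of phosphoinositide 3-kinase, at 0.44 (SE 0.13). Of the factors of alveolar differentiation, 4 of 11 rose, among them CEBPD, which is also in the list mean, and the ETS factors ELF3, at 0.36 (SE 0.08), and ELF1, at 0.32 (SE 0.08). ELF5, an ETS factor too, thus had a slope of opposite sign to ELF3 and ELF1. Of the 6 milk proteins, CSN1S1 alone passed, at −0.13 (SE 0.04, adjusted p = 0.017), and 5 did not pass.

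Markers of cell types were set against it as well. With the involution and acute phase level, on which 24.4% of bright, 16.8% of intermediate and 3.02% of dim probe sets rose, 7 of 8 T cell markers, 5 of 7 macrophage markers and 3 of 5 B and plasma cell markers rose, as did 6 of 13 fibroblast and matrix markers and 5 of 12 markers of the milk secreting epithelium, led by CLDN4, CDH1 and EPCAM. In the B and plasma cell, fibroblast and epithelial lists 1 marker each fell, and in the T cell and macrophage lists 0 did. The macrophage marker CD14 is itself in the list mean. IGF1 correlated with the epithelial mean at r = −0.772, with the T cell mean at −0.566 and with the fibroblast mean at −0.504. IGFBP3 correlated with these means at 0.654, 0.519 and 0.557. In models with each marker mean as the predictor, IGFBP3 passed for the epithelial mean (adjusted p = 0.0017 by limma, 27.9% of all probe sets), the fibroblast mean (adjusted p = 0.023, 12% of all), the myoepithelial and smooth muscle mean (adjusted p = 0.038, 7.25% of all) and the T cell mean (adjusted p = 0.044, 8.25% of all). ELF5, IGF1 and IGFBP5 passed for the macrophage mean with negative slopes, at adjusted p of 0.042, 0.047 and 0.048 (4.29% of all). The part of cell makeup in the member values was not tested. IGF1 and IGFBP5 also passed for the T cell mean, with negative slopes and adjusted p of 0.035 and 0.027. STAT5B passed for none of these means, and no member passed for the B and plasma cell mean (1.84% of all), the endothelial mean (0.217% of all) or the adipocyte mean (0% of all).

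The member genes were also set against each other, in 28 pairs over the 26 cows, and 7 pairs had a permutation p of r under 0.05. The share among pairs of all genes was not computed, so this count does not show a relation particular to the members. With IGFBP3 as predictor in limma, 19.9% of all probe sets passed the adjusted threshold. IGF1 and IGFBP3 ran in opposite directions, with r = −0.588 and rho = −0.614 (permutation p = 0.00195 and 0.0011), and r was −0.665 and −0.505 within array numbers 29 to 42 and 43 to 56. With the bright IGF1 probe set as predictor in limma, IGFBP3 fell by 1.63 per log2 (SE 0.42, adjusted p = 0.0069). Of the 22 other member probe sets 7 passed, against 27.2% of all. Direction went with signal class over the whole array. Of all bright probe sets 25.3% fell and 7.29% rose, of intermediate ones 15.8% fell and 12.7% rose. Among dim ones 2.3% fell and 19.3% rose. The member calls were 2 bright (both IGFBP3) falling, 2 intermediate rising and 3 dim rising. The second IGFBP3 probe set gave r = −0.538, and the intermediate IGF1 probe set gave r = −0.711 with IGFBP3, whereas the dim IGF1 probe sets gave −0.111 and −0.159. With the fibroblast and matrix mean as a covariate the slope of IGFBP3 was −1.14 (SE 0.46, adjusted p = 0.127). IGF1 and IGFBP5 ran together, with r = 0.552 and rho = 0.450 (permutation p = 0.0037 and 0.022), and IGFBP5 rose by 0.67 per log2 of IGF1 (SE 0.20, adjusted p = 0.015). With the covariate its slope was 0.67 (SE 0.23, adjusted p = 0.081), and within either array number range 0 members passed.

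PRLR and ELF5 ran in opposite directions, with r = −0.570 and rho = −0.652 (permutation p = 0.00074 and 0.00048). The value of r was −0.719 without AA 11, −0.648 without AA 11 and KA 2, and −0.702 and −0.542 within the lower and upper array numbers. In the models across all probe sets this pair missed the threshold, with an adjusted p of 0.053 for PRLR on ELF5 (slope −1.54, SE 0.42, 1.74% of all probe sets passing) and 0.087 for ELF5 on PRLR (slope −0.21, SE 0.06, 2.03% passing). PRLR and IGF1 gave r = −0.201 but rho = −0.594 (permutation p = 0.354 and 0.00174), and r was −0.676 without AA 11, but −0.679 within the lower array numbers and 0.015 within the upper ones. ELF5 correlated with IGF1R at 0.503 and with IGFBP5 at 0.502, and IGF1R with IGFBP3 at −0.506, with adjusted p of 0.167, 0.111 and 0.173 in the limma models that had the first gene of each pair as predictor. STAT5B stood outside these relations, since all its correlations with the other members lay between −0.093 and 0.080. GHR and PRLR, the related receptors, gave r = 0.361 with AA 11 and 0.001 without it.

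**Figure D5:**
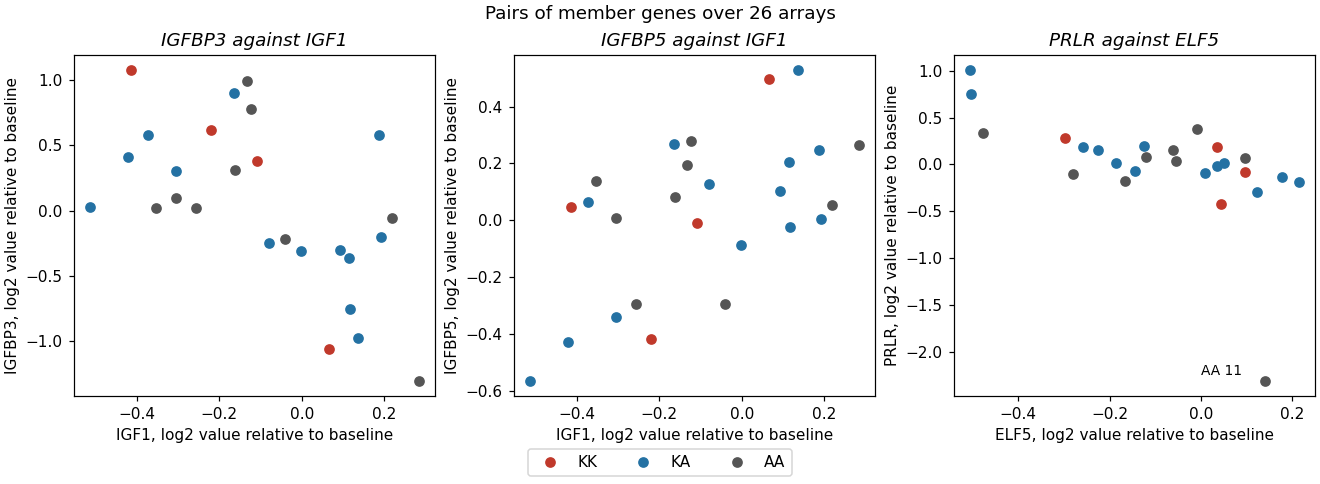
Log2 values, relative to the probe set baseline, of IGFBP3 against IGF1, of IGFBP5 against IGF1 and of PRLR against ELF5 over the 26 cows other than AA 2 and AA 9, 1 point per cow in KK, KA and AA colours. IGFBP3 falls and IGFBP5 rises as IGF1 rises; PRLR falls as ELF5 rises, apart from AA 11, whose PRLR value is −2.31.

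Probe sets of 1 gene did not always tell the same story. The 2 IGFBP3 probe sets, both bright, correlated at r = 0.942 over the 26 arrays. The bright and intermediate IGF1 probe sets correlated at 0.674, while the lowest of the 6 IGF1 pairs reached 0.006. The IGF1R probe sets correlated at −0.015. The 55 pairs of GHR probe sets ranged from −0.250 to 0.594 with a median of 0.184, and the probe set that stands for GHR reached at most 0.198 with any other. Results for GHR, IGF1 and IGF1R therefore hold for the probe sets named. Relative to probe sets of the same signal class, IGFBP3 (SD 0.63, percentile 98.0) and PRLR (SD 0.56, percentile 97.3) were among the most variable over the 26 cows, STAT5B (SD 0.38, percentile 89.6) was also above most, and the intermediate IGF1R probe set (SD 0.13, percentile 5.54) was among the least, unlike the dim one (SD 0.19, percentile 65.3).

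For each member gene, the genes with the most similar pattern over the 26 arrays were ranked by Pearson's r among 9154 other genes. IGF1 was most like RUNDC3A (0.866), GLYAT (0.847) and CHRM5 (0.842). IGFBP3 was most like MARCKS (0.887), SQOR (0.879) and TGIF1 (0.826). ELF5 was most like SLC5A9 (0.827), BTN1A1 (0.771), the butyrophilin of the milk fat globule membrane, and FOXO4 (0.769). STAT5B was most like PLD3 (0.843), USF2 (0.781) and SRPRA (0.778). PRLR was most like UTP6 (0.872), ITGAV (0.870) and TMED5 (0.857), values that fell to 0.592, 0.706 and 0.505 without AA 11, where these genes read −1.34, −1.52 and −1.60. The remaining members had less similar partners: CLINT1 (0.608), ALG11 (0.596) and C7H5orf24 (0.580) for GHR, PDE9A (0.677), CKAP2L (0.669) and GPR162 (0.668) for IGF1R, and RTKN (0.698), AHSG (0.694) and TEPSIN (0.683) for IGFBP5.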

How the data were processed

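RNA from 1 mammary biopsy per cow was measured on 28 Affymetrix arrays. The deposited values are log2 values that the authors made with Bioconductor 2.7 in R 2.13, per the labels' protocols. The submitters' processing notes name RMA and GCRMA, without saying which made the table. Each probe set is relative to a baseline that is not named. The table holds no counts or signals, so the number of arrays limits the precision, and p-values measure the spread between cows. Groups came from the labelled genotype.

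No further normalization was applied. The 112 control probe sets were left out and 24016 tested, of which 13292 carried 1 gene symbol, 86 several and 10638 none. Genotypes were compared with limma 3.58.1 (lmFit and eBayes, R 4.3.3) over all 28 arrays, with Benjamini-Hochberg adjustment over all probe sets and a threshold of 0.05. Slopes on the milk protein level, the involution and acute phase level and the IGF1 level were fitted in limma over 26 arrays, without AA 2 and AA 9. Correlations have two-sided permutation p-values from 100000 resamples in Python 3.11.15, and 23 were computed with the milk protein level, 28 between member genes and 207 with marker lists. The fits were tested on simulated data with 200 changed probe sets of 24016, with the spread of each probe set over the 26 arrays.

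The members and lists were chosen with earlier results of these data known. Named genes are all members, the 6 milk protein genes, at most 3 genes with the smallest p of each pathway list, and the 3 genes most like each member. The alternatives were quantile normalization, array centring, array weights, robust fits, array number blocks, a fibroblast and matrix covariate and arrays left out. The slopes on the involution and acute phase level and on the IGF1 level, and leaving out AA 11, were chosen after seeing the data.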

Additional observations from a re-analysis of the deposited data

Results flagged for a closer look

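In the group of 4 KK cows, 3 of the 23 member probe sets had 1 cow far from the other 3. The nominal rate of the rule is about 1 in 20 groups. The rule was applied to the member probe sets only, which share the same 4 cows. The count therefore does not show an excess particular to the members. ELF5 read −0.30 in KK 4, against 0.04 to 0.10 in the other KK cows. KK 4 also had the highest involution and acute phase level of the KK cows, at 0.68. The dim IGF1 probe set with the smallest genotype p read −0.26 in KK 1, against −0.03 to −0.02 in the other KK cows. The dim GHR probe set that correlated with the milk protein level at 0.382 read −0.18 in KK 2, against −0.10 to −0.09 in the other KK cows.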

How the results depend on the processing

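No member probe set passed in any of the 5 genotype comparisons under any alternative run. Over all probe sets, KA against AA gave 0 calls, but 47 with quantile normalization, 104 with array weights and 1 without AA 2 and AA 9 with the array number block. KK against KA gave 0, but 3 with array weights and 48 with the fibroblast and matrix covariate. The distance of KA from the midpoint gave 1, but 20 with quantile normalization, 80 with array weights, 21 with the fibroblast and matrix covariate, 6 without AA 2 and AA 9, and 0 with the array number block, without AA 2 alone and without AA 9 alone. Leaving out each KK cow in turn gave 0 to 5 calls for KA against AA, the 5 without KK 3, and 0 to 1 for the midpoint, with 0 without KK 2, KK 3 or KK 4.

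For the milk protein level, all 28 arrays gave 12475 calls over all probe sets and 11 among members, against 0 and 0 over 26 arrays, and quantile normalization and a level from LALBA and PAEP alone gave 1 each over all probe sets. The IGF1R slope turned to 0.29 with all 28 arrays, where AA 2 and AA 9 set the range. For the involution and acute phase level, members called were 5 with the fibroblast and matrix covariate, 6 within array numbers 29 to 42 and 4 within 43 to 56, against 11. Over all probe sets the counts were 11902 with all 28 arrays, 2323 with the covariate, 2663 and 2319 within the array number ranges, against 7259. For the IGF1 level, members called were 15 with all 28 arrays, 4 with quantile normalization, and 0 with the covariate and within either range, against 7. Over all probe sets they were 15608, 3927, 1221, 566 and 1142 in the same order, against 6531. The slope of PRLR on IGF1 turned to 0.49 with all 28 arrays. The arrays within a range are 13, so fewer cows enter those fits, and the cause of the other changes was not tested.

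No paired analysis was possible because the replicate numbers only name different cows in accession order. The 4 KK cows, the overlap of genotype with array number, the narrow range of milk protein level and the lack of absolute signals limit these results.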
